A study of Mus musculus with 35 samples.

Results

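The transcription factors that commit blood progenitors to the granulocyte and monocyte lineages were examined in hematopoietic stem/progenitor cells (HSPCs) of WT and JMJD1B-/- mice. They were named as a list of fate regulators by their known roles, not by a threshold on measured values, although earlier results of these data were known, and all 8 named genes, Cebpa, Cebpb, Cebpd, Cebpe, Sfpi1 (the older name of Spi1, which encodes PU.1), Gfi1, Klf4 and Rara, were present among the 11982 genes of the deposited expression table. JMJD1B, encoded by Kdm3b, is a histone demethylase, and the study asked which genes depend on it during HSPC development. RNA-seq was done on 4 libraries of polyA RNA, 2 per genotype, each labelled as a biological replicate. WT HSPCs came from bone marrow of mice of mixed 129P2xC57BL/6J background with an intact Kdm3b. JMJD1B-/- HSPCs came from mice of the same background that carried a gene trap in every cell, so that an effect within HSPCs and an effect of the rest of the animal cannot be told apart. The study's methods give mice of both sexes at 20 to 40 weeks of age. They do not say which animal gave which RNA library.

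PU.1 and C/EBP-alpha act together when a multipotent progenitor becomes a granulocyte-monocyte progenitor. PU.1 is needed for all myeloid lineages, and C/EBP-alpha opens the granulocyte program and switches on granule proteins and cytokine receptors. C/EBP-epsilon, C/EBP-beta and C/EBP-delta act later, in granule maturation, emergency granulopoiesis and the inflammatory response, GFI1 represses monocyte genes in favour of neutrophils, KLF4 favours monocytes, and the retinoic acid receptor RARA promotes granulocyte maturation when its ligand is bound.

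The promoter sequences of the 3 factors whose RNA had an unadjusted p under 0.05, all lower in JMJD1B-/- HSPCs, are shown first, since the histone marks that JMJD1B removes were studied at promoters. The promoter region used in the study was longer than the one printed here. Levels of the marks at these genes were not examined here. The RefSeq promoter table of mouse build GRCm38.p6 held 9 promoters for 5 of the 8 genes. The 250 bases before the annotated start are printed 5′ to 3′ on the strand of the gene, and for Gfi1, which has more than 1 start, those of its outermost start. Cebpa lies on the plus strand at chr7:35119043-35119292, Gfi1 on the minus strand at chr5:107725806-107726055 and Klf4 on the minus strand at chr4:55532476-55532725. Capitals mark matches to the letters searched, on either strand.
Cebpa: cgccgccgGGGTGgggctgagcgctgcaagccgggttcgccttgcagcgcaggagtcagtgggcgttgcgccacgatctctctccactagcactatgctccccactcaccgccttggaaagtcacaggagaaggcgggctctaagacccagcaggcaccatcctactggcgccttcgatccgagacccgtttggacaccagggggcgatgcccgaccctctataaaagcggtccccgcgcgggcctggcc
Gfi1: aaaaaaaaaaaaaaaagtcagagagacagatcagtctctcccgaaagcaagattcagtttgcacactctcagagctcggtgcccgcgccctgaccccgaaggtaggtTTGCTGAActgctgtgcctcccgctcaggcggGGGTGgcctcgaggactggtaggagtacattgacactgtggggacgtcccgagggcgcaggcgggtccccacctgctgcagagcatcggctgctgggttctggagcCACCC
Klf4: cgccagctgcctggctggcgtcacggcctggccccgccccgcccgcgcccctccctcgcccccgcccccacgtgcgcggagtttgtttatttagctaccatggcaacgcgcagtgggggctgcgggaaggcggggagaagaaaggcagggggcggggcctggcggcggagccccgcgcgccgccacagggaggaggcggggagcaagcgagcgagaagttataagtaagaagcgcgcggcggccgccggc

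Motif letters were counted over a window that ran on to 50 bases after the start. The C/EBP half-palindrome TTNNGNAA was matched in 1 of the 9 promoters, that of the outermost Gfi1 start, on the opposite strand at positions -143 to -136. It is held by 40.7% of the 32851 promoters of the table. The KLF core CACCC, which overlaps none of the other matches, was found in the promoters of Cebpa, Cebpb, Gfi1 and Rara and is held by 57.5% of all promoters. In Cebpa it lay at positions -242 to -238 and, after the start, at 45 to 49. The RAR half-site AGGTCA was found after 1 of the 4 Rara starts, at positions 34 to 39, and is held by 16.3% of promoters. The PU.1 core GAGGAAG and the E2F core TTTCCCGC, held by 13.6% and 1.07% of promoters, were matched in none of the 9. The Klf4 promoter, with a GC content of 74.3% against a median of 52.7% over the table, held none of the 5 motifs. These matches describe letters in a window, and binding was not measured here.

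Expression is given in RPKM, a read count scaled by the length of the transcript and by the depth of the library, so that levels of different genes can be set side by side. Depth was estimated from the steps between low values at about 17500000 and 24600000 reads for WT replicates 1 and 2 and at 6100000 and 21000000 for JMJD1B-/- replicates 1 and 2, so JMJD1B-/- replicate 1 is the least precise library. Kdm3b, the targeted gene, was at 31.0 and 24.3 RPKM in WT and at 4.00 and 4.63 in JMJD1B-/- (log2 fold change -2.65 ± 0.24 SE, limma adjusted p = 0.0314), which matches the labels. Of the markers of stem and progenitor cells, 12 of 12 listed genes were above 0 in every library. The same held for every listed marker of erythroid cells, megakaryocytes, basophils and mast cells, and eosinophils. This check therefore does not identify the cells. Xist was at 332 RPKM in WT replicate 2 and at most at 0.051 in the other libraries, so WT replicate 2 differs from the rest in the sex of its cells. The 5 of 7 listed sex-linked genes in the table summed to 105 and 334 RPKM in WT and to 117 and 118 RPKM in JMJD1B-/-. Without WT replicate 2 the log2 fold changes of Cebpa, Gfi1 and Klf4 were -3.00, -1.32 and -1.22.

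In JMJD1B-/- HSPCs the RNA of Cebpa was at 13.1% of the WT mean, the lowest share of the 8 factors, while Cebpb, Cebpe and Rara had overlapping libraries. Of the 8 factors, 3 were lower at an unadjusted p under 0.05 (Cebpa, Gfi1 and Klf4) and 0 were higher, beside 6.33% and 3.81% of the 11863 genes tested. After Benjamini-Hochberg adjustment over all genes tested, limma called 0 of the 8, beside 0.0337% of genes lower and 0.00843% higher. An equal-variance test run on each gene alone found 2 of the 8 lower at an unadjusted p under 0.05, Cebpa and Cebpd. By that test 512 of the 11863 genes tested were lower. After adjustment it called 0 of the 8, and 0 of all genes lower. The genotypes were separate, with JMJD1B-/- the lower, for 5 of the 8 (Cebpa, Cebpd, Sfpi1, Gfi1 and Klf4), beside 22.7% of genes tested, and separate with JMJD1B-/- the higher for 0 of the 8, beside 20.1%. The median log2 fold change was -0.96 over the 8 factors and -0.025 over all genes tested. The median of the 8 was -0.36 when JMJD1B-/- replicate 2 was left out and -1.41 when JMJD1B-/- replicate 1 was, so its size rests on which JMJD1B-/- library is used. In bulk RNA, fewer cells that express a gene and less RNA per cell cannot be told apart.

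**Figure D1:**
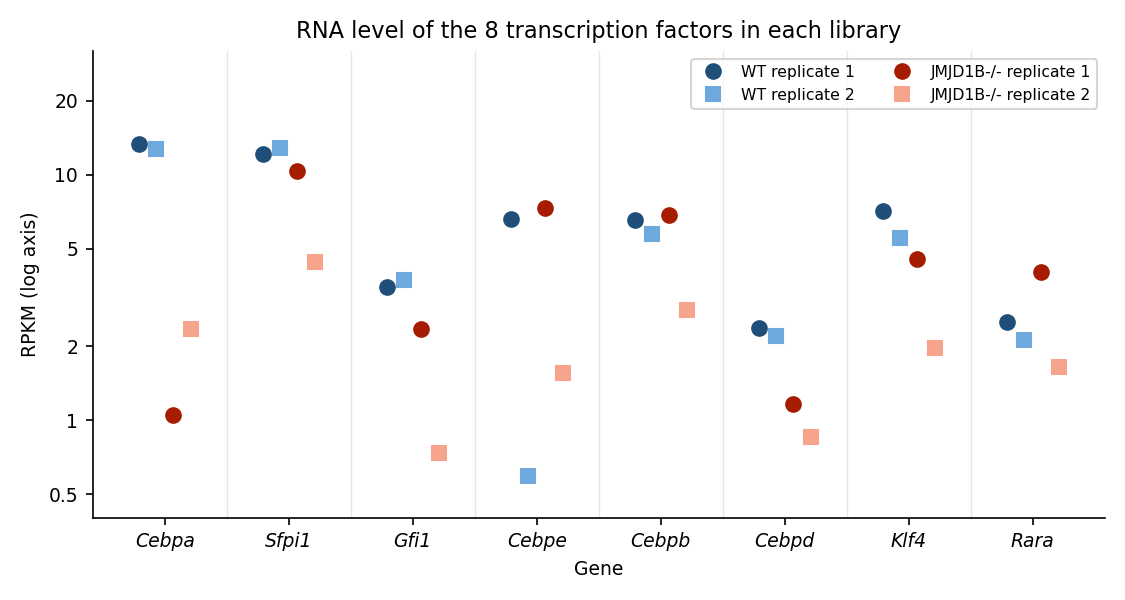
RPKM (log axis) of each of the 8 transcription factors in the 4 HSPC libraries, with 1 point per library (WT in blue, JMJD1B-/- in red, circles for replicate 1 and squares for replicate 2). For Cebpa the JMJD1B-/- points, at 1.05 and 2.36, sit far under the WT points at 13.4 and 12.7, and for 7 of the 8 genes JMJD1B-/- replicate 2 lies under JMJD1B-/- replicate 1.

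Cebpa, which encodes C/EBP-alpha, was at 13.4 and 12.7 RPKM in the WT libraries and at 1.05 and 2.36 RPKM in the JMJD1B-/- libraries. Both JMJD1B-/- values were low and the groups did not overlap. The log2 fold change was -2.96 ± 0.41 (SE, n = 2 per genotype, 95% interval -3.91 to -2.01, limma adjusted p = 0.0768). WT HSPCs placed Cebpa above 57.6% of the listed genes, whereas it stood above 8.01% of them in JMJD1B-/- replicate 1 and above 19.7% in replicate 2. The estimated coverage of the gene was 234 and 311 reads per kilobase in WT against 6.44 and 49.6 in JMJD1B-/-, so the lowest value rests on few reads. It is nonetheless above the 0.491 RPKM that 3 reads per kilobase represent in that library. The difference had an unadjusted p under 0.05 in 9 of 9 alternative settings with all libraries and in 4 of 4 fits that left out a library, with log2 fold changes from -3.50 to -2.41. Its adjusted p ran from 0.000109 to 0.675 over the former and from 8.72e-05 to 1.0 over the latter, so the adjusted call depends on the setting.

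Cebpb, which encodes the C/EBP factor of emergency granulopoiesis, was at 6.53 and 5.73 RPKM in WT and at 6.86 and 2.81 RPKM in JMJD1B-/-. One JMJD1B-/- library lay above both WT libraries and the other under both. This gave a log2 fold change of -0.47 (95% interval -1.48 to 0.54, limma adjusted p = 0.740). Leaving out JMJD1B-/- replicate 1 gave -1.10, and leaving out replicate 2 of that genotype gave 0.16. Cebpd, an early inflammatory C/EBP gene, was at 2.37 and 2.20 RPKM in WT and at 1.16 and 0.855 RPKM in JMJD1B-/-. Its groups did not overlap, with a log2 fold change of -1.12 ± 0.50 (SE, limma adjusted p = 0.505). Cebpd lies within the bounds of Spidr in the RefSeq annotation, and the library kit does not mark strand. Spidr, under its older name 2310008H04Rik, was at 16.2 and 17.2 RPKM in WT and at 14.8 in both JMJD1B-/- libraries, and any share of its reads in the Cebpd value was not tested.

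Cebpe, the C/EBP gene of late granulocyte maturation, was at 6.59 and 0.591 RPKM in WT and at 7.30 and 1.56 RPKM in JMJD1B-/-. The spread between replicates exceeded the difference between genotypes: WT replicate 1 was 11.2 times WT replicate 2, and JMJD1B-/- replicate 1 was 4.69 times replicate 2. The log2 fold change was 0.70 with a 95% interval from -1.84 to 3.25 (limma adjusted p = 0.859). It was 2.34 without WT replicate 1, -0.94 without WT replicate 2 and -0.38 without JMJD1B-/- replicate 1.

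Marker genes of eosinophils, a lineage that also uses C/EBP-epsilon, were likewise higher in replicate 1 than in replicate 2 of each genotype, although the order of all 4 libraries was not the same as for Cebpe. The summed level of 7 eosinophil markers, 0 of which were at 0 in any library, was 6015 and 1149 RPKM in WT and 5366 and 1211 RPKM in JMJD1B-/-. Most of it came from Prg2, the eosinophil major basic protein, named here after its values were seen, which was at 5377 and 988 RPKM in WT and at 4328 and 1077 RPKM in JMJD1B-/-. Maturing neutrophil markers summed to 23.4 and 9.56 RPKM in WT and to 70.5 and 31.7 RPKM in JMJD1B-/-, over the 7 of 10 listed genes in the table, and 1 of them, Camp, was at 0 in 2 libraries. Of the 5 neutrophil markers tested, 3 were higher and 1 was lower at an unadjusted p under 0.05, beside 3.81% and 6.33% of all genes, with a median log2 fold change of 1.38. Among them S100a9, a calprotectin gene named after its values were seen, was at 2.79 and 1.41 RPKM in WT and at 8.01 and 10.8 RPKM in JMJD1B-/-. Replicate 1 was thus the higher library of each genotype for Cebpe and for the eosinophil sum. The neutrophil sum has the same order in JMJD1B-/- through Retnlg, at 46.5 and 6.45 RPKM, while S100a9 was higher in replicate 2. The part of these cells in the Cebpe values was not tested.

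**Figure D2:**
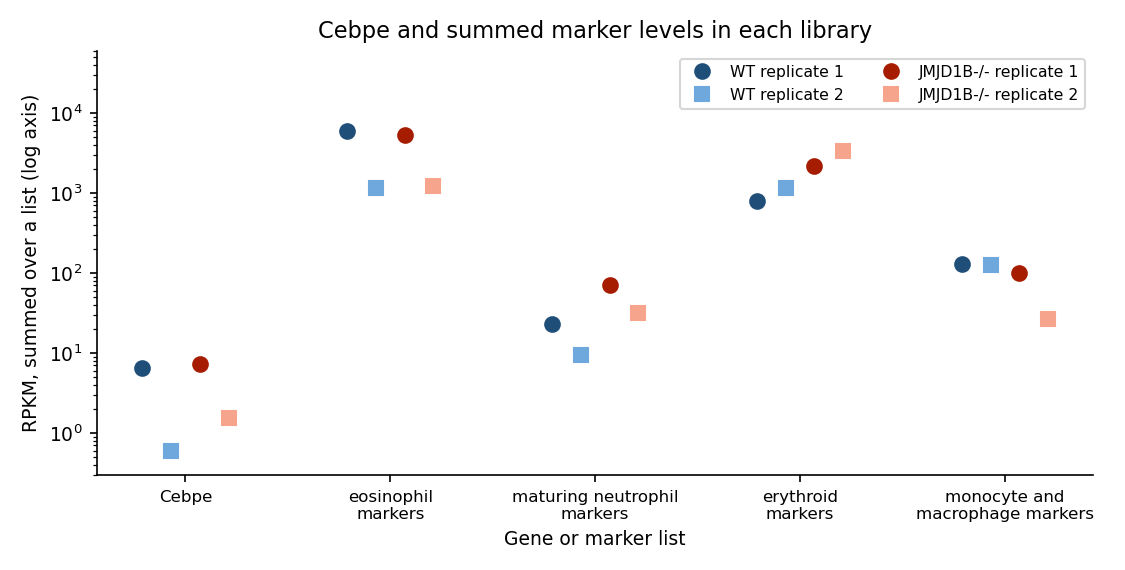
Level of Cebpe and summed levels of 4 marker lists in each library, in RPKM on a log axis, with WT in blue, JMJD1B-/- in red, circles for replicate 1 and squares for replicate 2. Cebpe (0.591 to 7.30 RPKM) and the eosinophil markers (1149 to 6015 RPKM) both split by replicate rather than by genotype, while the erythroid markers are higher in both JMJD1B-/- libraries.

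Not all C/EBP genes were lower. The other C/EBP family genes, Cebpg, Cebpz and Ddit3, had log2 fold changes between 0.03 and 0.16 with overlapping libraries, and 0 of the 3 were called in either direction, where 6.33% of all genes were lower and 3.81% higher. The genotypes were separate in 22.7% of all genes with JMJD1B-/- the lower and in 20.1% with JMJD1B-/- the higher, so a count of 0 among so few genes says little. Cebpg, which encodes a partner of the other C/EBP proteins in dimers, was at 14.5 and 14.8 RPKM in WT and at 14.3 and 15.5 RPKM in JMJD1B-/-. Its libraries differed little from each other within or between genotypes. For the genes of C/EBP-alpha degradation, which include the Tribbles genes and the ubiquitin ligase genes Rfwd2 (COP1) and Fbxw7, 0 of 6 were called, which is likewise near the share of all genes, and the median log2 fold change was 0.15.

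Sfpi1, which encodes PU.1, was at 12.2 and 12.9 RPKM in WT and at 10.4 and 4.39 RPKM in JMJD1B-/-. The groups did not overlap, but JMJD1B-/- replicate 1 was close to WT and replicate 2 was at 34.9% of the WT mean. The log2 fold change was -0.88 ± 0.39 (SE, 95% interval -1.80 to 0.03, limma adjusted p = 0.501). Leaving out JMJD1B-/- replicate 1 gave -1.50 (limma adjusted p = 0.00724) and leaving out replicate 2 gave -0.27. Over the 4 fits with a library left out the adjusted p ran up to 1.0.

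Among 12 partners and antagonists of PU.1, 3 genes were lower and 1 was higher at an unadjusted p under 0.05 (6.33% and 3.81% of all genes tested), 0 after adjustment, and the median log2 fold change was -0.31. The median was -0.14 without JMJD1B-/- replicate 2. Irf8, the PU.1 partner that specifies monocytes and dendritic cells, was at 45.9 and 55.0 RPKM in WT and at 33.3 and 9.34 RPKM in JMJD1B-/- (log2 fold change -1.50 ± 0.51 SE, limma adjusted p = 0.420). Like Sfpi1, it was lowest in JMJD1B-/- replicate 2, and its log2 fold change was -0.59 without that library and -2.42 without the other JMJD1B-/- library. Gata1, the erythroid factor that opposes PU.1, was at 32.8 and 35.9 RPKM in WT and at 44.5 and 63.6 RPKM in JMJD1B-/- (log2 fold change 0.63 ± 0.22 SE, adjusted p = 0.425 by limma, and 0.37 without JMJD1B-/- replicate 2). Gata2, a factor of stem, mast and megakaryocyte cells, was at 73.3 and 52.9 RPKM in WT and at 28.4 and 46.9 RPKM in JMJD1B-/-. The third lower gene was Cbfb, the partner of RUNX1, which falls outside the rule for named genes and was named after its values were seen (log2 fold change -0.56).

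Gfi1 was at 3.48 and 3.74 RPKM in WT and at 2.35 and 0.732 RPKM in JMJD1B-/-. The groups did not overlap, and JMJD1B-/- replicate 2 was at 20.3% of the WT mean against 65.3% for replicate 1. For Gfi1 the log2 fold change was -1.37 ± 0.58 (SE, 95% interval -2.72 to -0.03, limma adjusted p = 0.486). The unadjusted p was under 0.05 in 4 of 9 alternatives and was not when WT replicate 1, WT replicate 2 or JMJD1B-/- replicate 2 was left out.

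Over the 8 genes of GFI1 partners and corepressors the median log2 fold change was 0.10, with 1 higher and 0 lower at an unadjusted p under 0.05, where 3.81% of all genes were higher. The higher one was Gfi1b, the paralog of Gfi1 that acts in erythroid and megakaryocyte cells, which was at 24.3 and 23.2 RPKM in WT and at 35.5 and 50.7 RPKM in JMJD1B-/- (log2 fold change 0.84 ± 0.22 SE, limma adjusted p = 0.309). Gfi1 and Gfi1b therefore differed in direction. The libraries of each did not overlap, and the lowest Gfi1 and the highest Gfi1b were both in JMJD1B-/- replicate 2. Kdm1a and Rcor1, the corepressor core, had log2 fold changes of 0.08 and 0.09.

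Of 10 tested genes that GFI1 is known to repress, 3 were lower and 0 higher at an unadjusted p under 0.05, where 6.33% of all genes were lower. Their median log2 fold change was -0.54, and it became -0.33 when JMJD1B-/- replicate 1 was left out and -0.87 when JMJD1B-/- replicate 2 was. Csf1, the macrophage growth factor gene, was at 7.96 and 7.23 RPKM in WT and at 1.66 and 0.777 RPKM in JMJD1B-/- (log2 fold change -2.63 ± 0.44 SE, limma adjusted p = 0.148). Cdkn1a, which encodes the cell-cycle inhibitor p21, was at 1.37 and 2.28 RPKM in WT, at 0 in JMJD1B-/- replicate 1 and at 0.652 RPKM in replicate 2. Its fitted change depends on the pseudocount because of the value at 0. Meis1, a stem cell homeobox gene, was at 53.9 and 39.7 RPKM in WT and at 24.1 and 37.4 RPKM in JMJD1B-/-.

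**Figure D3:**
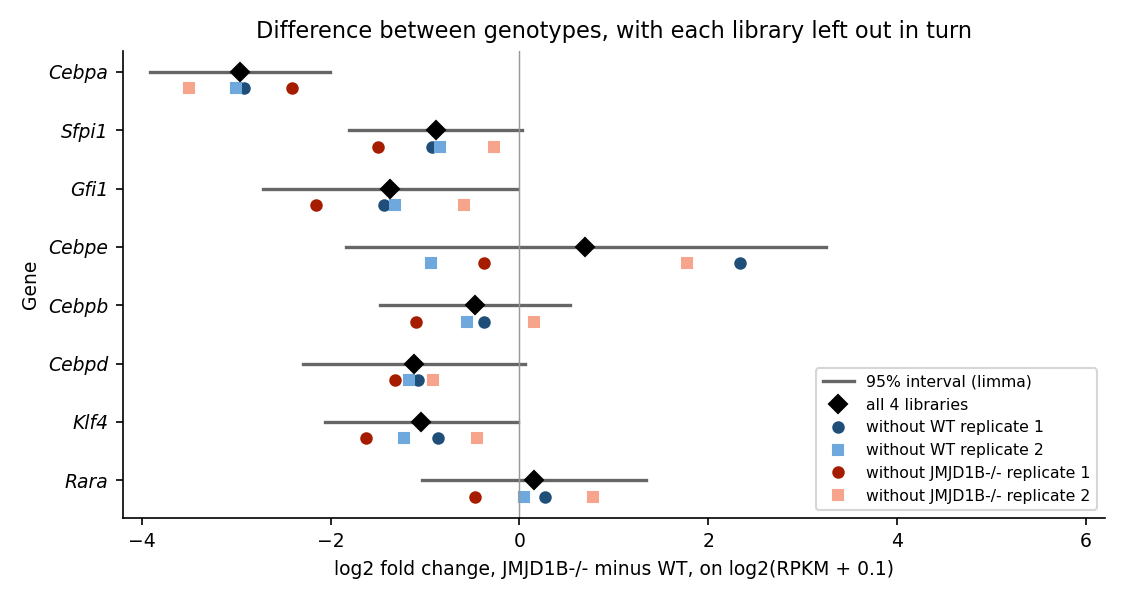
Log2 fold change of the 8 factors (JMJD1B-/- minus WT, on log2(RPKM + 0.1)) with the 95% interval of limma, and the value with each library left out in turn under it. The interval of Cebpa runs from -3.91 to -2.01, and for Sfpi1, Gfi1, Klf4 and Cebpb the difference is smaller or changes sign without JMJD1B-/- replicate 2.

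Klf4 was at 7.13 and 5.52 RPKM in WT and at 4.55 and 1.97 RPKM in JMJD1B-/-. The groups did not overlap, and replicate 2 was again the lower JMJD1B-/- library. Its log2 fold change was -1.04 ± 0.44 (SE, 95% interval -2.06 to -0.02, limma adjusted p = 0.488). The unadjusted p was under 0.05 in 5 of 9 alternatives and was not when WT replicate 1, WT replicate 2 or JMJD1B-/- replicate 2 was left out.

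For the 12 other regulators of monocyte fate tested the median log2 fold change was -0.19, and at an unadjusted p under 0.05 only Irf8 was lower and only Maf was higher, beside 6.33% and 3.81% of all genes. Maf, a gene of mature macrophages, was at 0.800 and 1.16 RPKM in WT and at 14.3 and 2.32 RPKM in JMJD1B-/- (log2 fold change 2.47 ± 0.78 SE, limma adjusted p = 0.389). The high value came from JMJD1B-/- replicate 1, the shallow library, without which the log2 fold change was 1.19. Monocyte and macrophage markers as a list summed to 129 and 127 RPKM in WT and to 100 and 26.6 RPKM in JMJD1B-/-, over the 8 of 12 listed genes in the table, and 0 of them were at 0. Their part in the Klf4 and Irf8 values was not tested.

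Rara was at 2.50 and 2.13 RPKM in WT and at 4.03 and 1.64 RPKM in JMJD1B-/-. One JMJD1B-/- library was above WT and the other under it. The fitted log2 fold change of 0.16 (95% interval -1.03 to 1.34, limma adjusted p = 0.939) became -0.47 when JMJD1B-/- replicate 1 was left out and 0.78 when replicate 2 was. RefSeq has an overlapping coding gene model and a small nuclear RNA gene model within the bounds of Rara, both not in the table.

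For retinoid receptors, coactivators and corepressors the median log2 fold change was 0.06 over 11 genes tested, with 1 lower and 0 higher at an unadjusted p under 0.05, a share near the 6.33% of all genes. The lower gene was Ncoa3, a nuclear receptor coactivator, at 21.2 and 17.9 RPKM in WT and at 13.7 and 13.4 RPKM in JMJD1B-/-. Of 7 genes of retinoid metabolism and known RARA targets, 1 was lower and 0 were higher, beside 6.33% and 3.81% of all genes. Dhrs3, which reduces retinal to retinol and is a retinoic acid target, was at 13.2 and 15.5 RPKM in WT and at 8.50 and 8.27 RPKM in JMJD1B-/- (log2 fold change -0.76 ± 0.23 SE, limma adjusted p = 0.357). The 7 include an entry named Stra13, an older name that RefSeq gives to more than 1 gene. The median log2 fold change was -0.29 with this entry and 0.07 over the 6 genes without it, a comparison chosen after the values were seen, so the list had no clear direction. Ligand levels were not measured.

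**Figure D4:**
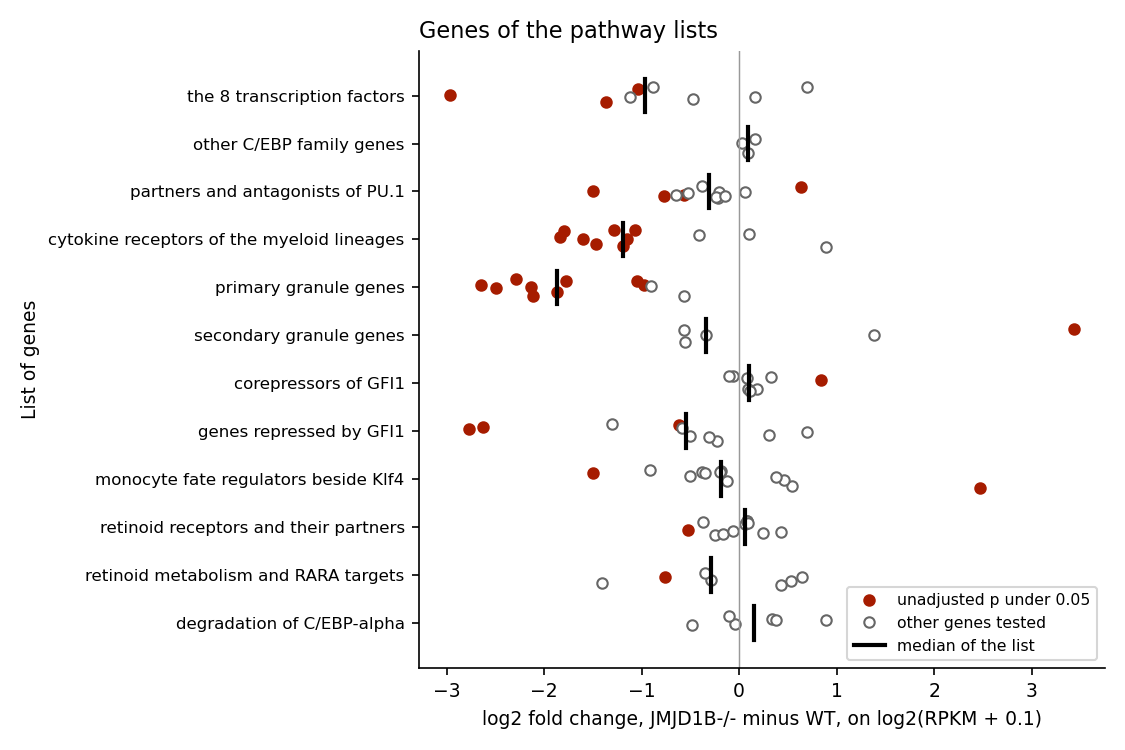
Log2 fold change (JMJD1B-/- minus WT, on log2(RPKM + 0.1)) of each gene tested, by list, with filled points for an unadjusted p under 0.05 and a bar at the median of each list. The primary granule genes (median -1.87) and the cytokine receptors (median -1.19) lie lowest, and the corepressors of GFI1 and retinoid receptors sit near 0.

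Cytokine receptor genes of the myeloid lineages and granule genes were examined next, against the background of 6.33% of genes lower at an unadjusted p under 0.05. These lists were not drawn up as targets of the factors, and control by the factors was not tested. Of the 11 cytokine receptor genes tested, 8 were lower and 0 higher by the unadjusted criterion, none of them past adjustment. The median log2 fold change of the list was -1.19 and became -0.71 without JMJD1B-/- replicate 2. Csf1r, the receptor of macrophage growth factor and a classical PU.1 target, was at 9.22 and 7.73 RPKM in WT and at 3.75 and 1.45 RPKM in JMJD1B-/-. Csf2rb, the shared beta chain of the GM-CSF, IL-3 and IL-5 receptors, was at 25.0 and 17.1 RPKM in WT and at 12.0 and 3.77 RPKM in JMJD1B-/-, and reads may be split between it and its close copy Csf2rb2. Flt3, the receptor of early multipotent and dendritic progenitors, was at 25.1 and 32.6 RPKM in WT and at 18.4 and 3.37 RPKM in JMJD1B-/-. All 3 were lowest in JMJD1B-/- replicate 2. Kit, the stem cell factor receptor, did not share this, at 66.9 and 62.5 RPKM in WT and at 51.6 and 92.7 RPKM in JMJD1B-/-. It was named after its values were seen.

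Primary granule proteins are made at the promyelocyte stage under C/EBP-alpha and PU.1. The list named for them also holds genes that encode no granule protein, such as Ms4a3 and Serpinb1a. Another of its genes, Hdc, named for its place in both lists, is counted among the basophil and mast cell markers as well. In this mixed list 11 of 11 genes tested were negative, and 9 were lower at an unadjusted p under 0.05, with a median log2 fold change of -1.87. This median became -1.0 when JMJD1B-/- replicate 2 was left out and -2.75 when JMJD1B-/- replicate 1 was. Mpo, the myeloperoxidase gene, was at 131 and 79.0 RPKM in WT and at 21.4 and 12.1 RPKM in JMJD1B-/- (log2 fold change -2.65 ± 0.33 SE, limma adjusted p = 0.064). Elane, which encodes neutrophil elastase, was at 28.3 and 16.7 RPKM in WT and at 9.21 and 2.06 RPKM in JMJD1B-/-. Ms4a3, a gene of granulocyte-monocyte progenitors, was at 23.5 and 19.9 RPKM in WT and at 6.11 and 2.30 RPKM in JMJD1B-/-. Both JMJD1B-/- libraries were low for each of these. Prtn3, the proteinase 3 gene, named after its values were seen, was the 1 gene of the list that passed adjustment, and only just (log2 fold change -2.11, limma adjusted p = 0.04998).

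Secondary granule genes, which follow under C/EBP-epsilon, overlapped between the genotypes in the 5 of 11 listed genes that were tested, beside 22.7% and 20.1% of all genes with separate libraries, and 1 was higher and 0 lower at an unadjusted p under 0.05, where 3.81% of all genes were higher. Their median log2 fold change was -0.34, and it became 1.24 when JMJD1B-/- replicate 2 was left out and -1.11 when JMJD1B-/- replicate 1 was. The median was 0.22 without WT replicate 1 and -0.72 without WT replicate 2. Ltf, the lactoferrin gene, was too low to be tested and was named after its values were seen, at 0.205 and 0.0442 RPKM in WT and at 1.28 and 0.397 RPKM in JMJD1B-/-. The higher gene was Retnlg, a gene of mature neutrophils, named after its values were seen, at 7.10 and 0.266 RPKM in WT and at 46.5 and 6.45 RPKM in JMJD1B-/-. It had the same order of libraries within each genotype as Cebpe.

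Ratios between factors within a library do not depend on a scaling factor applied to the whole library, but they do on quantile normalization, which was not used for them. Cebpa over Cebpb, given as the log2 of the RPKM ratio, was 1.03 and 1.14 in WT and -2.70 and -0.25 in JMJD1B-/-, so Cebpa was the more abundant of the pair in both WT libraries and the less abundant in both JMJD1B-/- libraries. Cebpa over Cebpg was -0.12 and -0.22 in WT and -3.77 and -2.71 in JMJD1B-/-. Sfpi1 over Cebpa was -0.13 and 0.03 in WT, near equal levels, and 3.30 and 0.90 in JMJD1B-/-. Sfpi1 over Gata1 was -1.43 and -1.47 in WT and -2.10 and -3.86 in JMJD1B-/-. In each of these the groups did not overlap.

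Cebpe over Cebpa was -1.02 and -4.42 in WT and 2.79 and -0.60 in JMJD1B-/-, without overlap but with a spread of 2.41 (SD) between the WT libraries against a difference of 3.82 between the means. Gfi1 over Irf8 was -3.72 and -3.88 in WT and -3.82 and -3.67 in JMJD1B-/-, and here the groups overlapped, with a difference of 0.05. Both genes were thus lower by about the same share in each JMJD1B-/- library. Of the 6 ratios, 5 gave p = 0.333 in a two-sided exact permutation test, which is the smallest p that 2 against 2 libraries allow, and Gfi1 over Irf8 gave an exact p = 0.667.

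**Figure D5:**
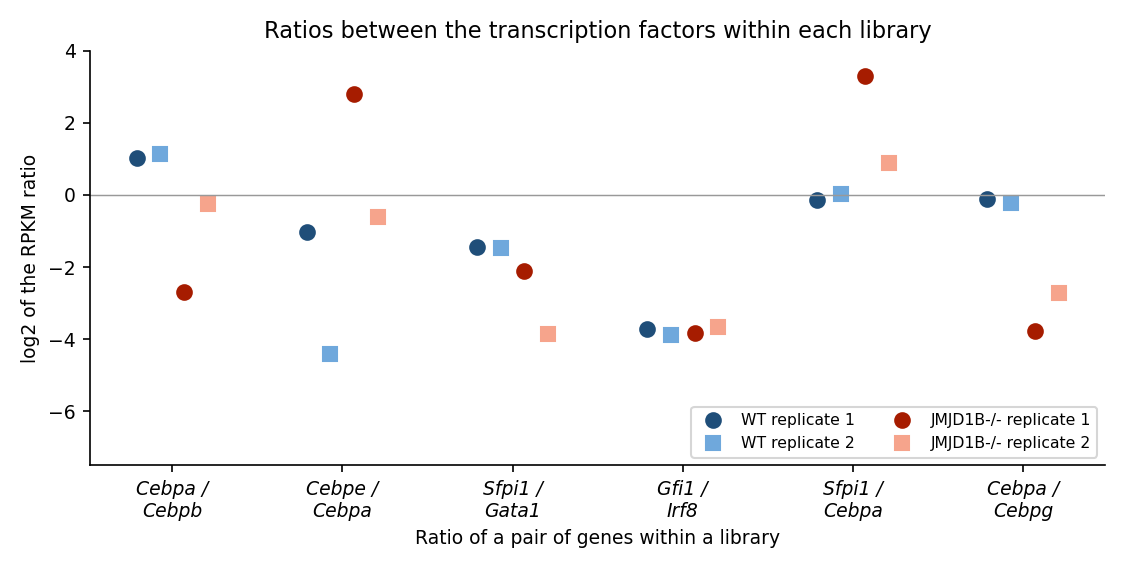
Log2 of the RPKM ratio of 6 pairs of genes within each library, with WT in blue, JMJD1B-/- in red, circles for replicate 1 and squares for replicate 2. Cebpa over Cebpb is above 0 in both WT libraries and below 0 in both JMJD1B-/- libraries, and Gfi1 over Irf8 stays between -3.88 and -3.67.

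By level per length, the order in WT was Cebpa (mean 13 RPKM), Sfpi1 (12.6), Klf4 (6.32), Cebpb (6.13), Gfi1 (3.61), Cebpe (3.59), Rara (2.32) and Cebpd (2.28). Neighbours in this order overlapped between libraries except for Sfpi1 and Klf4 and for Cebpb and Gfi1. In JMJD1B-/- the order was Sfpi1 (7.39), Cebpb (4.83), Cebpe (4.43), Klf4 (3.26), Rara (2.84), Cebpa (1.71), Gfi1 (1.54) and Cebpd (1.01), and all neighbours overlapped. By mean level Cebpa moved from first to sixth place, which neither JMJD1B-/- library shows alone. Within JMJD1B-/- replicate 1 it was the lowest of the factors, at 1.05 RPKM. In JMJD1B-/- replicate 2, at 2.36 RPKM, it stood under only Sfpi1 (4.39) and Cebpb (2.81). WT replicate 2 had Sfpi1 (12.9) above Cebpa (12.7).

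The 2 JMJD1B-/- libraries differed from each other in these genes. JMJD1B-/- replicate 1 was above replicate 2 for 7 of the 8 factors and more than 2 times as high for 6 of them, whereas 34.8% and 8.24% of the 11720 tested genes above 0 in both libraries were. Cebpa was the exception, with 1.05 RPKM in replicate 1 against 2.36 in replicate 2. Cebpa was thus lowest in one JMJD1B-/- library, and Sfpi1, Gfi1, Klf4, Cebpb, Cebpd and Rara in the other. The 2 WT libraries were within a ratio of 0.93 to 1.29 for the 7 factors other than Cebpe.

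The pathway genes whose pattern over the 4 libraries was nearest to each factor, by the largest difference between their centred log2(RPKM + 0.1) values, were as follows. Klf4 was nearest to Serpinb1a, an inhibitor of neutrophil serine proteases, with a largest difference of 0.06, and to Id1 with 0.22. Gfi1 was nearest to Il6st (0.14) and Csf2rb2 (0.19), Cebpb to Lyz1 (0.12) and Lyz2 (0.13), Cebpd to Csf3r (0.11) and Il6ra (0.13), and Sfpi1 to Lyz2 (0.25) and Serpinb1a (0.26). Rara was nearest to Rdh10 (0.31) and Rxra (0.40). Cebpa and Cebpe had no close match: the nearest to Cebpa were Cdkn1a (1.01) and Cd38 (1.06), and the nearest to Cebpe were Trib3 (0.62) and Ngp (0.97). With 4 libraries this is a description of likeness.

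Several marker lists of other cells differed between the genotypes, among them the maturing neutrophil markers given above, whereas the summed eosinophil and T and NK cell markers overlapped. Of the eosinophil genes 0 of 7 were called, and of the T and NK cell genes 1 of 9 was lower and 2 were higher at an unadjusted p under 0.05. Summed erythroid markers were at 789 and 1142 RPKM in WT and at 2181 and 3366 RPKM in JMJD1B-/-, with 10 of 12 genes higher at an unadjusted p under 0.05 (3.81% of all genes tested) and a median log2 fold change of 1.55. Summed basophil and mast cell markers were at 579 and 629 RPKM in WT and at 141 and 93.3 RPKM in JMJD1B-/-, with 8 of 8 genes lower (6.33% of all genes tested). Stem and progenitor markers summed to 336 and 317 RPKM in WT and to 199 and 243 RPKM in JMJD1B-/-, with 6 of 12 lower, and megakaryocyte markers to 702 and 647 RPKM against 276 and 397 RPKM. Dendritic cell markers summed to between 54.8 and 73.5 RPKM in WT and between 28.8 and 47.5 RPKM in JMJD1B-/-, stroma and endothelium markers to between 45.3 and 74.4 RPKM against between 14.4 and 27.4 RPKM, T and NK cell markers to between 26.2 and 33.2 RPKM against between 15.0 and 58.4 RPKM, and genes of tissue dissociation and stress to between 408 and 536 RPKM against between 312 and 436 RPKM. The 1 B cell marker in the table, of 8 listed, was at most at 3.28 RPKM. In JMJD1B-/- replicates 1 and 2, Cebpa was at 8.11% and 18.1% of the WT mean and Sfpi1 at 82.6% and 34.9%. Gfi1 was at 65.3% and 20.3% and Klf4 at 71.9% and 31.1%. The part of cell makeup in the lower Cebpa, Sfpi1, Gfi1 and Klf4 RNA was not tested.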

How the data were processed

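The study's samples number 35, and expression values were analysed for the 4 RNA-seq libraries of HSPCs, 2 WT and 2 JMJD1B-/-. A single table of RPKM, raised by 1 throughout, was deposited by the authors. The submitters' processing notes name mm9, TopHat2 and Novoalign without their roles, and the counting program and annotation are not given in the sources used here. RPKM was taken as the deposited value minus 1, and entries sharing a gene name were averaged (84 entries, 42 names). The table lists genes that reach 1.0 RPKM in at least 1 library, and other genes were not analysed here. Whole reads could not be recovered for most genes, so no count test was run, and depths are estimates from low genes, using RefSeq lengths of GRCm38.p6.

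The 11863 genes whose mean RPKM reached 0.5 were tested two-sided with limma (version 3.58.1, R 4.3.3) after transformation to log2(RPKM + 0.1) (lmFit, eBayes with a trend, no replicate term) and Benjamini-Hochberg adjustment. The fold change of low genes is understated on this scale. The fit was run on simulated libraries with a set dispersion of 0.05, where 99% of 200 genes changed 4-fold were called after adjustment. That dispersion was not estimated from these data, so the share does not carry over to them. Tables and figures used Python 3.11.15, numpy 2.4.6, pandas 2.3.3, scipy 1.17.1 and matplotlib 3.10.9. The factors, 11 pathway lists, 13 marker lists and tests were chosen with earlier results of these data known. Named were the 8 factors, Kdm3b, the genes of the ratios, up to 3 genes per pathway list with the largest change among those with an unadjusted p under 0.05 and no overlap, and the 2 pathway genes nearest in pattern to each factor. Alternatives were other pseudocounts, filters, scalings and tests, a replicate term, and each library left out.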

Additional observations from a re-analysis of the deposited data

How the results depend on the processing

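The median of the 8 factors ran from -1.41 without JMJD1B-/- replicate 1 to -0.36 without JMJD1B-/- replicate 2. List medians that are near 0, such as those of the corepressors of GFI1 and the retinoid receptors, changed sign or size with a library left out. The count of factors lower at an unadjusted p under 0.05, 3 as reported, was 1 under either median-ratio scaling or quantile normalization, and 1 to 6 with a library left out. After adjustment it was 1 with a pseudocount of 1 and 0 to 4 with a library left out. Over all genes, 177 to 1819 were lower and 123 to 1258 higher at an unadjusted p under 0.05 with a library left out. After adjustment the genes lower were 15 and the genes higher 3 with a pseudocount of 1, 2 were lower with a pseudocount of 0.01 and 2 with the filter raised to a mean of 1 RPKM, 0 were lower with median-ratio scaling, quantile normalization, limma without a trend and the gene-by-gene test, 0 were higher with the last 2, and 0 to 523 were lower and 0 to 147 higher with a library left out. The lone library is then assumed to vary like the other genotype.

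The replicate numbers are shared between the genotypes, but deviations of libraries with the same number correlated at -0.054 over 11863 genes. The numbers thus showed no pairing over all genes, although Cebpe and the summed eosinophil markers were higher in replicate 1 of each genotype. A pairing limited to some genes was not tested. With the replicate number as a block, 173 genes were lower and 83 higher after adjustment, and 1 factor, Cebpa, was lower (limma adjusted p = 0.000109).

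With a library left out, the log2 fold change changed sign for Cebpb (range -1.10 to 0.16), Cebpe (-0.94 to 2.34, and -0.38 without JMJD1B-/- replicate 1), Rara (-0.47 to 0.78), Cebpg (-0.03 to 0.08), Lyz1 (-1.11 to 0.02), Trib3 (-0.71 to 2.50, and -0.32 without WT replicate 2), Rdh10 (-0.02 to 0.88) and Rxra (-0.42 to 1.28). With a pseudocount of 1, the difference in the log2 ratio was 0.51 for Gfi1 over Irf8 and -2.44 for Cebpa over Cebpg. At 2 libraries per genotype and about 6100000 reads in the shallowest, differences in the lower-expressed factors of the size between replicates could not be resolved.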
